A study of Homo sapiens with 12 samples.

Results

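The AP-1 and EGR immediate early genes are taken here as 10 human genes: FOS, FOSB, FOSL1, FOSL2, JUN, JUNB, JUND, ATF3, EGR1 and EGR3. They were listed by name, not by a cutoff on a measured value, with earlier results of these data already known. Each was found once among the 57820 genes of the deposited tables. AP-1 is a transcription factor made of a pair of proteins. A JUN family protein (JUN, JUNB, JUND) pairs with a FOS family protein (FOS, FOSB, FOSL1, FOSL2), with another JUN protein, or with a relative such as ATF3. EGR1 and EGR3 are zinc finger factors that bind GC-rich sites. Many of these genes are immediate early genes, which growth factors, steroid hormones and stress switch on through MAP kinases and serum response factor without new protein synthesis, and whose mRNAs mostly decay fast.

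All RNA came from T47D-MTVL cells, a line derived from the luminal, hormone-responsive breast cancer line T47D that carries a luciferase reporter under the MMTV promoter. The cells were kept in charcoal-treated serum and none received the progestin R5020, so all values are from cells without that hormone. The 12 libraries form 6 groups of 2. Poly(A) RNA was read from cells given a control siRNA, called siCtrl, or one against PADI2, called siPADI2. It was also read from cells that expressed an RNA polymerase II (RNAP2) with an HA tag and resistance to alpha-amanitin, either wild type (WT) or R1810A, for 24 h and then spent 12 h in 6 µg/ml alpha-amanitin. That toxin blocks the cells' own RNAP2. RNA that stayed with chromatin was read after siCtrl (replicates 1 and 5) and siPADI2 (replicates 1 and 2). PADI2 is an enzyme that converts arginine in proteins to citrulline, and R1810A is an RNAP2 form in which an arginine of the C-terminal tail of POLR2A is replaced by alanine. The comparisons ask how the 10 genes differ between siPADI2 and siCtrl and between the libraries labelled R1810A and WT.

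Total counts, in units of 1e6, ran from 44.32 (siCtrl replicate 1) to 132.76 in poly(A) RNA. In chromatin RNA they were 6.67 and 7.04 for siCtrl and 2.72 and 2.80 for siPADI2. PADI2 itself was at 23.8 and 22.5 counts per 1e6 scaled counts (CPM) with siCtrl and at 1.84 and 1.88 with siPADI2. It was also low, at 3.22 and 2.34 against 47.5 and 50.5 CPM, in the libraries labelled R1810A against WT, and no value checks the replaced residue itself. POLR2A was at 371.3 and 361.7 CPM in the libraries labelled R1810A and 500.6 and 526.9 with WT. It was at 313.9 and 306.7 CPM with siPADI2 and 486.6 and 399.6 with siCtrl. The replaced arginine and the lower PADI2 and POLR2A RNA cannot be told apart in the R1810A comparison. The summed level of 8 luminal markers (ESR1, PGR, GATA3, FOXA1, KRT8, KRT18, KRT19, EPCAM) was 8638 to 9676 CPM with siCtrl and 4780 to 5227 with siPADI2, and 8405 to 9092 with WT and 5101 to 5620 in the libraries labelled R1810A. Of 7 markers of other cell types, 6 had a matching symbol, and their summed level was 44.6 to 73.3 CPM over the 8 poly(A) libraries, nearly all of it COL1A1. The basal keratin KRT5 was at 0 in 7 of those 8 libraries. In chromatin RNA the luminal sum was 2148 to 2273 CPM with siCtrl and 965.7 to 1390 with siPADI2. The sum does not stand for each marker. In each poly(A) comparison, 6 of the 8 were lower and 1, EPCAM, higher at an adjusted p under 0.05 in edgeR. In chromatin RNA 4 were lower and 0 higher. Of all genes, 27.9% were lower and 28.8% higher with siPADI2, 24.3% and 22.6% with R1810A, and 20.1% and 12.2% in chromatin RNA. The fall in the luminal sum moved with all 3 comparisons below, and its part in them was not tested. In bulk RNA, fewer cells of a kind and less RNA per cell cannot be told apart.

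Promoter sequences of RefSeq (GRCh38.p14, 250 bases before to 50 bases after each start site) were searched on both strands for letters that AP-1, CREB/ATF, SRF and EGR factors are known to bind. They were also searched for TATAAA, the TATA box, which is not a site of these factors. Of the members, 8 were searched, and the stretches below are shown because FOS, EGR1 and JUN fell in chromatin RNA and ATF3, FOSL2 and JUND rose in a poly(A) comparison. Capitals mark the motif: the CArG box of serum response factor in EGR1, TGACG and TATAAA in FOS, TGACATCA in JUN and ATF3, TGACGTCA in JUND and TGACTCA in FOSL2.
EGR1 (chr5:138465368-138465411, plus strand): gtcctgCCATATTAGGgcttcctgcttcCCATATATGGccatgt
FOS (chr14:75278758-75278806, plus strand): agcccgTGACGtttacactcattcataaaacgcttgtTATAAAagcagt
JUN (chr1:58784097-58784124, minus strand): ggccttggggTGACATCAtgggctattt
ATF3 (chr1:212565274-212565301, plus strand): acctatgataTGACATCAtatggccact
JUND (chr19:18281805-18281832, minus strand): gccgcccccaTGACGTCAacccacaagg
FOSL2 (chr2:28392854-28392876, plus strand): cattgtagTGACTCAtctcgggc

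The CArG boxes of EGR1 began 105 and 83 bases before the start, and 1.29% of 35116 promoter windows of the same length held 1. EGR1 also held GCGNGGGCG, a site of the EGR family, 198 bases before the start (9.43% of windows). The letters TGACATCA, found in 2.61% of windows, stood 67 bases before the start in JUN and 123 bases before it in the upstream of the 2 ATF3 windows. JUND held TGACGTCA, the full cyclic AMP response element, 200 bases before the start (1.85%), and FOSL2 held TGACTCA, the classical AP-1 site, just after the start (4.95%). TATAAA (11.53% of windows) lay 33, 30 and 31 bases before the start in FOS, FOSB and JUNB. TGACG, which is part of TGACGTCA, was in 24.55% of windows and in all members searched except ATF3. These are matches of letters only. The stretches shown were chosen by outcome, and JUNB, which fell with siPADI2, is not among them. A link between any of these letters and a change in RNA was not tested.

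The JUN family made up most of the poly(A) RNA of these genes, and JUND was its most abundant member in every library. Between genes, levels are compared as CPM per kb of exon. In siCtrl cells JUND was at 48.3 ± 2.37 CPM per kb (SD, n = 2), JUNB at 40.9 ± 5.07 and JUN at 26.6 ± 2.72. FOSL2, the main FOS family gene, was at 4.61 ± 0.274 and ATF3 at 11.1 ± 0.338 CPM per kb. EGR1 was far lower at 0.422 ± 0.0808, FOSB at 0.267 ± 0.00632 and FOS at 0.141 ± 0.000651. FOSL1 and EGR3 were near the limit of detection, at 0.0296 ± 0.0118 and 0.00986 ± 4.57e-05 CPM per kb. The small SDs of FOS and EGR3 rest on 19 and 57 and on 2 and 6 counts, and they do not measure counting noise.

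**Figure D1:**
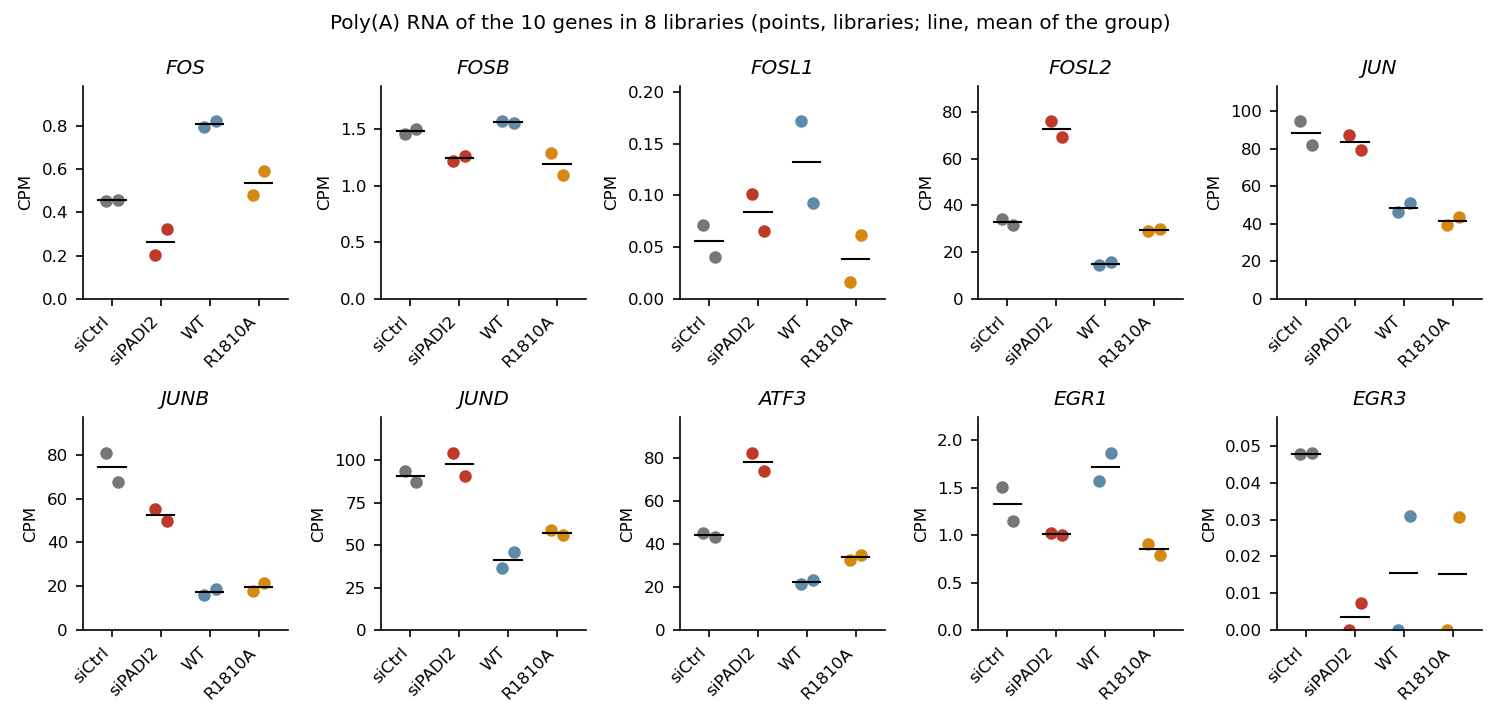
Level of each gene in poly(A) RNA, in CPM on a linear axis from 0 that differs between panels; points are libraries and the line is the mean of the group's 2 libraries. FOSL2 and ATF3 sat higher with siPADI2 than with siCtrl and higher in R1810A than in WT, and EGR1 and FOS sat lower in R1810A than in WT.

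JUNB, which pairs with FOS proteins and is often a weaker activator than JUN, lies at chr19:12902310-12904124 (hg19) on the plus strand and overlaps HOOK2 on the other strand. JUNB was at 80.8 and 67.8 CPM with siCtrl and at 55.4 and 49.7 CPM with siPADI2, so both knockdown libraries were below both controls. The log2 fold change was −0.51 ± 0.0900 (SE), a fall by 1.42-fold (adjusted p = 9.08e-06, edgeR quasi-likelihood test, Benjamini-Hochberg). It kept this call in all 10 alternatives run. In the cells in alpha-amanitin, JUNB was at 16.2 and 18.9 CPM with WT and at 17.7 and 21.7 in the libraries labelled R1810A, with overlapping groups. There the log2 fold change was 0.13 ± 0.132 and did not pass (adjusted p = 0.475, edgeR quasi-likelihood test). Without R1810A replicate 1 it was 0.29 and passed as higher (adjusted p = 0.0316, edgeR). The difference between the effects was tested in a joint fit of the 8 poly(A) libraries. It was −0.67 ± 0.176 for JUNB (adjusted p = 0.0225, edgeR quasi-likelihood test), and with library totals in place of TMM scaling it was −0.52 and did not pass (adjusted p = 0.0684, edgeR).

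JUND, a JUN protein that many resting cells express, lies at chr19:18390563-18392432 (hg19) on the minus strand. It was at 93.5 and 87.3 CPM with siCtrl and 104.1 and 90.8 with siPADI2, and the groups overlapped. The siPADI2 log2 fold change of JUND was 0.09 ± 0.0850 (adjusted p = 0.353, edgeR), and library totals moved it to 0.28 with a call (adjusted p = 0.00515, edgeR). In the toxin, JUND was at 36.7 and 46.0 CPM with WT and in the libraries labelled R1810A at 58.8 and 55.9, without overlap. JUND rose there by 0.43 ± 0.0953 on the log2 scale (adjusted p = 0.00879, edgeR quasi-likelihood test). That call was lost without either R1810A library, with adjusted p up to 0.129 (edgeR).

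JUN, the founding AP-1 subunit, lies at chr1:59246465-59249785 (hg19) on the minus strand. It was at 94.7 and 81.9 CPM with siCtrl and at 87.7 and 79.3 with siPADI2, with overlapping groups and a log2 fold change of −0.09 ± 0.0863 (adjusted p = 0.372, edgeR). Its sign turned with library totals, to 0.09. With WT it was at 46.2 and 51.1 CPM, and in the libraries labelled R1810A at 39.5 and 43.5, so both of the latter were below both of the former. JUN fell there by 0.27 ± 0.0734 on the log2 scale (adjusted p = 0.0106, edgeR quasi-likelihood test). The call was lost with library totals and without WT replicate 2 or R1810A replicate 1 (adjusted p up to 0.0770, edgeR).

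FOSL2 encodes Fra-2, a FOS family partner of the JUN proteins, and was the FOS family gene with the largest change in CPM. It lies at chr2:28615315-28640179 (hg19) on the plus strand and overlaps another annotated gene on that strand and FOSL2-AS1 on the other. FOSL2 was at 34.4 and 31.6 CPM with siCtrl and at 76.0 and 69.5 CPM with siPADI2. Both knockdown libraries were well above the higher control. The rise was 1.13 ± 0.0883 on the log2 scale, or 2.19-fold (adjusted p = 5.01e-14, edgeR quasi-likelihood test). In the toxin it was at 14.5 and 15.7 CPM with WT and in the libraries labelled R1810A at 28.8 and 30.0. Again the groups were apart, with a rise of 0.92 ± 0.0702 or 1.90-fold (adjusted p = 2.59e-07, edgeR quasi-likelihood test). FOSL2 kept its call in all 10 alternatives of each comparison. The siPADI2 and R1810A effects on FOSL2 differed by 0.18 ± 0.107 (adjusted p = 0.241, edgeR), and with library totals by 0.32, which passed (adjusted p = 0.0349, edgeR).

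FOS, the founding FOS family gene, lies at chr14:75745477-75748933 (hg19) on the plus strand and was low in all poly(A) libraries. It was at 0.454 and 0.456 CPM with siCtrl, from 19 and 57 counts, and at 0.204 and 0.322 CPM with siPADI2, from 24 and 44 counts. The groups did not overlap, and FOS fell by 0.79 ± 0.328 on the log2 scale (adjusted p = 0.0379, edgeR quasi-likelihood test). The call was lost in 6 of 10 alternatives: with library totals, with no filter on low counts, with DESeq2, and without siCtrl replicate 1, siCtrl replicate 2 or siPADI2 replicate 1. Over the alternatives, the FOS change ran from −1.17 to −0.51 and its adjusted p from 0.0178 to 0.273 (edgeR or DESeq2). With WT it was at 0.796 and 0.820 CPM and in the libraries labelled R1810A at 0.479 and 0.590 CPM, again apart. It fell there by 0.63 ± 0.213 (adjusted p = 0.0268, edgeR quasi-likelihood test). That call was lost with DESeq2, in the joint fit, and without WT replicate 1, WT replicate 2 or R1810A replicate 1 (adjusted p from 6.54e-04 to 0.182 over the alternatives, edgeR or DESeq2).

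FOSB, a FOS family gene with known brain and bone roles, lies at chr19:45971253-45978437 (hg19) on the plus strand and overlaps ERCC1 on the other strand. It was at 1.456 and 1.505 CPM with siCtrl, from 61 and 188 counts. With siPADI2 it was at 1.22 and 1.26 CPM, from 144 and 172 counts, and the groups did not overlap. The log2 fold change of −0.27 ± 0.196 did not pass (adjusted p = 0.236, edgeR). With WT it was at 1.57 and 1.55 CPM and in the libraries labelled R1810A at 1.29 and 1.10. FOSB fell there by 0.43 ± 0.160 (adjusted p = 0.0414, edgeR quasi-likelihood test). This call was lost in 7 of 10 alternatives: with library totals, with DESeq2, in the joint fit, and when any 1 of the 4 libraries was left out (adjusted p up to 0.228, edgeR or DESeq2).

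FOSL1, which encodes Fra-1, lies at chr11:65659520-65668044 (hg19) on the minus strand. It had 3 and 5 counts with siCtrl and 12 and 9 with siPADI2 and did not pass the filter on low counts. In the cells in alpha-amanitin it had 22 and 12 counts with WT and 2 and 8 in the libraries labelled R1810A. The fall of 1.75 ± 0.613 on the log2 scale passed (adjusted p = 0.0333, edgeR quasi-likelihood test). It rests on these few counts, and it was lost without WT replicate 1 and without R1810A replicate 1 (adjusted p up to 0.245, edgeR).

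ATF3, a stress-induced factor of the same leucine zipper class that can repress or activate with JUN proteins, lies at chr1:212738676-212794119 (hg19) on the plus strand, with another annotated gene on the other strand within its span. It was at 45.4 and 43.4 CPM with siCtrl and at 82.3 and 74.1 with siPADI2. All knockdown values were above all controls, and ATF3 rose by 0.80 ± 0.0859 or 1.74-fold (adjusted p = 2.16e-10, edgeR quasi-likelihood test). In the toxin ATF3 was at 21.4 and 23.3 CPM with WT and in the libraries labelled R1810A at 32.8 and 34.9, also without overlap. The rise was 0.56 ± 0.0700 or 1.47-fold (adjusted p = 2.39e-05, edgeR quasi-likelihood test). ATF3 kept both calls in all 10 alternatives of each comparison. The difference between the effects, 0.22 ± 0.106, did not pass (adjusted p = 0.147, edgeR), and with library totals it was 0.36 and passed (adjusted p = 0.0181, edgeR).

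EGR1, a zinc finger factor and a standard readout of MAP kinase signalling, lies at chr5:137801179-137805004 (hg19) on the plus strand. It was at 1.504 and 1.145 CPM with siCtrl, from 63 and 143 counts, and at 1.02 and 0.996 with siPADI2, from 120 and 136 counts. The groups were apart, but the log2 fold change of −0.36 ± 0.214 did not pass (adjusted p = 0.147, edgeR). The toxin-treated cells had EGR1 at 1.57 and 1.86 CPM with WT and in the libraries labelled R1810A at 0.909 and 0.789. EGR1 fell there by 1.06 ± 0.170 on the log2 scale, or 2.08-fold (adjusted p = 2.07e-04, edgeR quasi-likelihood test), and kept this call in all 10 alternatives. The 2 effects differed by 0.66 ± 0.271, which did not pass (adjusted p = 0.0907, edgeR), and passed with library totals (adjusted p = 0.0335, edgeR).

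EGR3, a relative of EGR1, lies at chr8:22545172-22550815 (hg19) on the minus strand and overlaps another annotated gene on the other strand. In poly(A) RNA it had 2 and 6 counts with siCtrl, 0 and 1 with siPADI2, 0 and 4 with WT, and 0 and 4 in the libraries labelled R1810A. It did not pass the filter on low counts. A count of 0 allows up to 0.0255 CPM in siPADI2 replicate 1, 0.0234 in WT replicate 1 and 0.0248 in R1810A replicate 1, which is 3 counts of each total. No fold is given at this depth.

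Across the members, siPADI2 left 2 of 8 tested genes higher (FOSL2, ATF3) and 2 lower (JUNB, FOS) in poly(A) RNA. Of all 18720 genes tested, 56.7% passed in either direction, 28.8% higher and 27.9% lower, so the members' counts are close to that background. Their median log2 fold change was −0.18 against 0.01 for all genes. With library totals, 67.0% of the genes that passed were higher, against 50.8% with TMM scaling. In the libraries labelled R1810A, 3 of 9 tested members were higher (FOSL2, ATF3, JUND) and 5 lower (FOS, FOSB, FOSL1, JUN, EGR1). There 46.9% of 19202 genes passed, 22.6% higher and 24.3% lower, and the medians were −0.27 for the members and −0.02 for all genes. For the difference between these effects, 1 of 9 members passed (JUNB), against 26.1% of genes. Of the genes that passed, 45.1% were higher with TMM scaling and 68.0% with library totals.

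**Figure D2:**
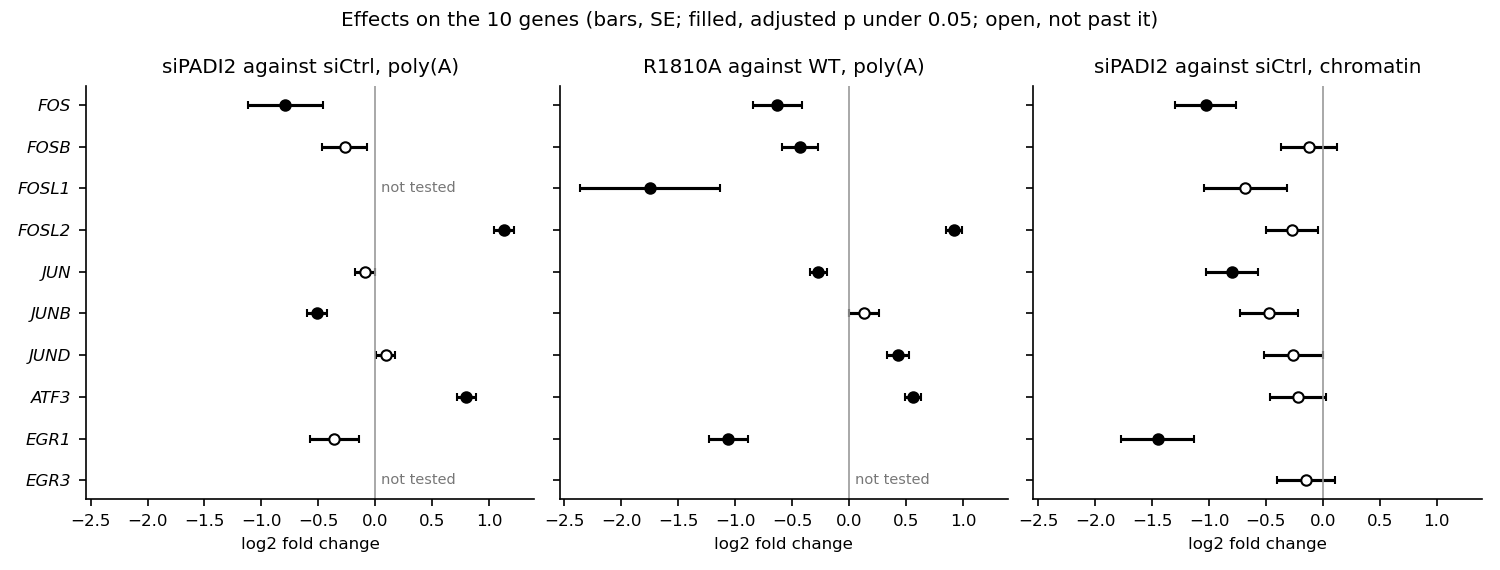
Log2 fold change of each gene in the 3 comparisons, with its SE as a bar; filled points have an adjusted p under 0.05 in edgeR. FOSL2 and ATF3 lay right of 0 in both poly(A) panels and left of 0, unfilled, in chromatin RNA, where FOS, JUN and EGR1 were filled.

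The FOS family sum, per kb of exon, was 5.24 and 4.85 CPM with siCtrl and 10.9 and 10.1 with siPADI2. FOSL2 made up 91.1% to 91.6% of it with siCtrl and 96.4% to 96.9% with siPADI2. The JUN family sum was 123.0 and 108.7 CPM per kb with siCtrl and 112.6 and 99.8 with siPADI2, with overlapping groups. The ratio of the JUN to the FOS family sum was therefore 23.5 and 22.4 with siCtrl against 10.3 and 9.91 with siPADI2. It was 16.0 and 18.2 with WT and 12.0 and 11.9 in the libraries labelled R1810A. In the WT libraries FOSL2 held a smaller share of its family, 76.6% and 79.0%, with FOS at 9.28% and 9.13% and FOSB at 10.7% and 10.1%. These ratios are descriptions without a test, and RNA is not protein.

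**Figure D3:**
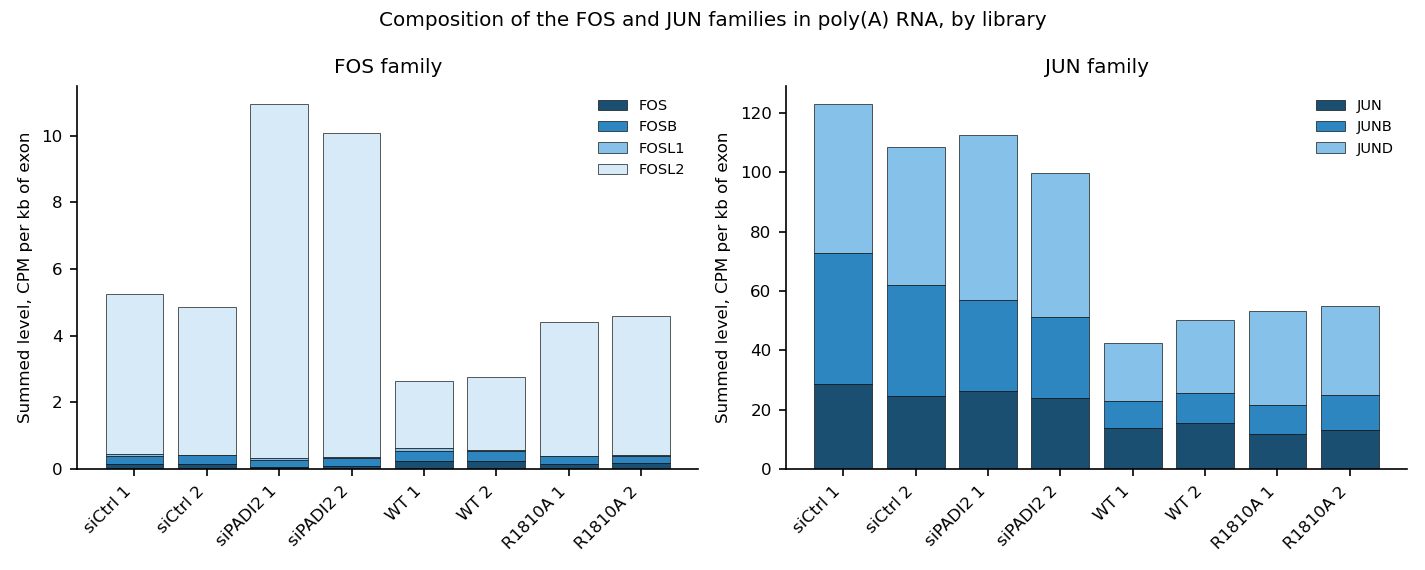
Stacked levels, in CPM per kb of exon, of the FOS family (left) and JUN family (right) in each of the 8 poly(A) libraries; each segment is a gene. FOSL2 fills most of the left bars, which reach 10.9 and 10.1 with siPADI2.

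The WT libraries differ from siCtrl in toxin, transfected material and experiment together, which cannot be told apart, and the comparison shares its siCtrl libraries with the siPADI2 one. Of 9 members tested, 2 were higher in WT (FOS, FOSL1) and 5 lower (FOSL2, JUN, JUNB, JUND, ATF3), against 54.3% of genes that passed. JUNB had the widest gap, −2.09 ± 0.0913 or 4.26-fold lower (adjusted p = 2.31e-112, edgeR quasi-likelihood test). By mean level FOSL2 and ATF3 had the same order of the 4 groups: siPADI2, siCtrl, R1810A and WT, with no overlap between neighbours. FOS and EGR1 were highest in WT, also with no overlap between neighbours. How many of all genes have 4 such separate groups was not counted. FOS was lowest with siPADI2 and EGR1 in the libraries labelled R1810A.

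Chromatin RNA had counts spread over genes that the poly(A) libraries did not show at all. Of 1154 protein-coding genes with no count in any poly(A) library, 80.4% to 83.4% had a count in each chromatin library, with a median of 1.35 to 1.69 CPM per kb of exon and a 95th percentile of 4.86 to 7.32. JUNB (6.14 to 12.0 CPM per kb) and JUND (6.52 to 9.59) were above that 95th percentile in all 4 libraries. JUN was above it in 3 libraries and FOS in 1, siCtrl replicate 5. FOSB, FOSL1, FOSL2, ATF3, EGR1 and EGR3 were below it in all 4. EGR3, almost without counts in poly(A) RNA, was at 3.02 to 3.75 CPM per kb, at the 76.4th to 82.3rd percentile of those genes. Chromatin values of these 6 genes are thus at levels that genes without poly(A) RNA also reach.

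**Figure D4:**
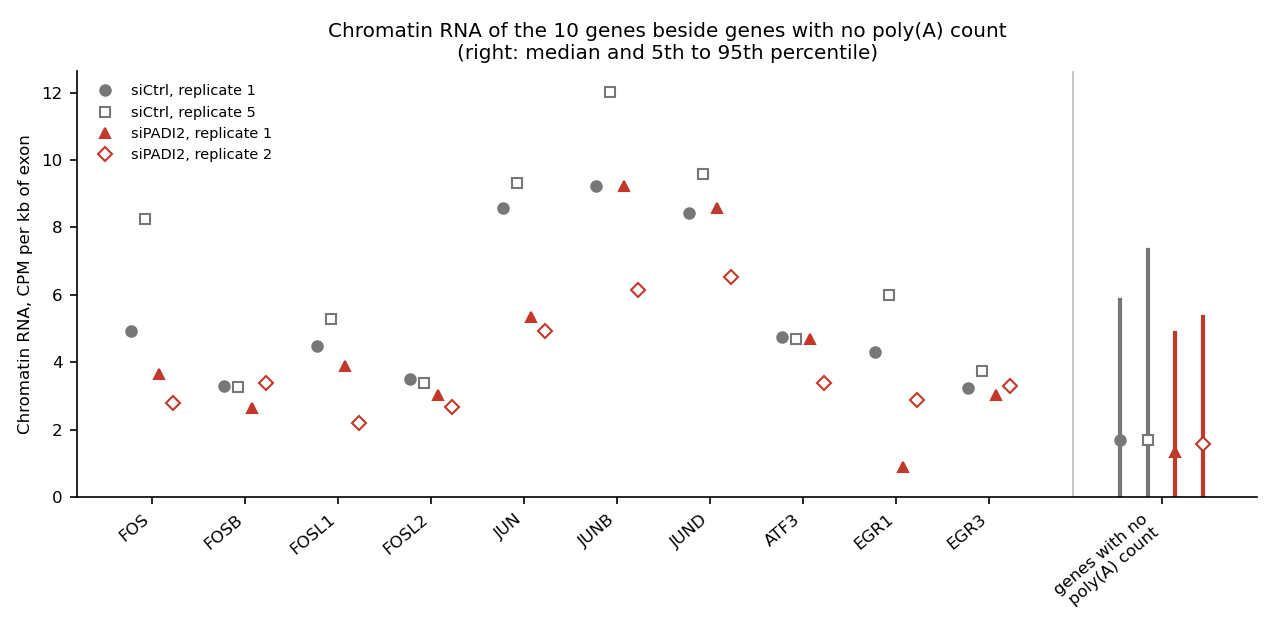
Chromatin RNA level of each gene in the 4 libraries, in CPM per kb of exon on a linear axis from 0; at the right, the median (symbol) and 5th to 95th percentile (line) of genes with no poly(A) count. JUNB and JUND sit above the upper ends of the lines, while FOSB, FOSL2 and EGR3 sit within them.

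FOS, JUN and EGR1 fell in chromatin RNA with siPADI2. By CPM per kb, EGR1 was below the 95th percentile of genes with no poly(A) count in every library. The same held for FOS in all but siCtrl replicate 5, and for JUN in siPADI2 replicate 2. The part of this in the falls was not tested. EGR1 had 85 and 130 counts with siCtrl, or 13.5 and 18.8 CPM, and 8 and 26 counts with siPADI2, or 2.79 and 9.05 CPM. The groups were apart, with a fall of 1.45 ± 0.319 on the log2 scale (adjusted p = 7.96e-05, edgeR quasi-likelihood test). Without siPADI2 replicate 1, the lower library, the change was −0.84 and did not pass (adjusted p = 0.0873, edgeR).

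FOS was at 15.9 and 26.8 CPM with siCtrl, from 100 and 185 counts, and at 11.9 and 9.05 with siPADI2, from 34 and 26 counts. All siPADI2 values were below all controls, and FOS fell by 1.03 ± 0.265 (adjusted p = 8.50e-04, edgeR quasi-likelihood test). That call was lost with DESeq2, without siCtrl replicate 5 and without siPADI2 replicate 2, with a change of −0.65 at the smallest and adjusted p up to 0.197 (edgeR or DESeq2). JUN was at 28.5 and 31.0 CPM with siCtrl and 17.8 and 16.4 with siPADI2, groups that were apart. JUN fell by 0.80 ± 0.230 (adjusted p = 0.00324, edgeR quasi-likelihood test), and the call was lost with DESeq2 and without siPADI2 replicate 2 (adjusted p up to 0.0659, edgeR or DESeq2).

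The other members did not pass in chromatin RNA. FOSL2 was at 25.0 and 24.2 CPM with siCtrl and 21.6 and 19.2 with siPADI2, a log2 fold change of −0.27 ± 0.227. ATF3 was at 18.96 and 18.8 against 18.8 and 13.6 CPM, with −0.22 ± 0.247. JUNB (−0.47 ± 0.254), JUND (−0.26 ± 0.258), FOSL1 (−0.68 ± 0.365), FOSB (−0.12 ± 0.247) and EGR3 (−0.15 ± 0.254) complete the set. Thus 0 of 10 members were higher and 3 lower, against 32.4% of all genes in either direction, 12.2% higher and 20.1% lower. The medians were −0.37 for the members and 0.03 for all genes. Genes with no poly(A) count also moved: 35.4% of the 728 tested passed, 65 of them higher and 193 lower, with a median of −0.24. The siPADI2 chromatin libraries had fewer counts, and mitochondrial genes took 4.45% and 6.20% of them against 1.92% and 2.01% with siCtrl. The luminal sum fell in the same libraries, to 965.7 to 1390 CPM from 2148 to 2273. The part of these in the falls was not tested.

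The siPADI2 effect in chromatin and in poly(A) RNA was compared in a joint fit of 8 libraries. FOSL2 had a lower effect in chromatin by 1.61 ± 0.393 on the log2 scale (adjusted p = 0.00142, edgeR quasi-likelihood test), and ATF3 by 1.23 ± 0.401 (adjusted p = 0.0318, edgeR quasi-likelihood test). Both passed in both alternatives run. These 2 were the only members of 10 to pass, against 8.05% of all genes. Of the genes that passed, 21.2% had a higher effect in chromatin, and the median difference of all genes was −0.16. FOSL2 stood at the 14.7th and ATF3 at the 20.5th percentile of all genes tested, so many genes had a lower value. The differences for EGR1 (−1.27 ± 0.472, adjusted p = 0.0750, edgeR) and JUN (−0.93 ± 0.398, adjusted p = 0.161, edgeR) did not pass. FOSL2 and ATF3 are among the 6 genes whose chromatin level genes without poly(A) RNA also reach, and the part of that in the difference was not tested. Fraction, library kit and counting version differ together between the RNA kinds. In siCtrl cells all 10 members differed between them, 5 each way, against 92.5% of all genes. JUN, JUNB, JUND, FOSL2 and ATF3 were lower in chromatin, and FOS, FOSB, FOSL1, EGR1 and EGR3 were higher. Each direction was the same with library totals as with TMM scaling, but calls are given for TMM scaling only. With TMM scaling, 75.3% of all genes that passed were higher in chromatin, and the median of all genes was 5.55 on the log2 scale. FOS (4.31), FOSB (2.40) and EGR1 (2.44) lay below that median, and FOSL1 (6.23) and EGR3 (7.13) above it. Library totals shifted the median of all genes by 1.30 on the log2 scale. The size of each difference, such as −1.61 ± 0.338 for FOSL2 with TMM scaling, therefore depends on the scaling.

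The wider pathway was described through lists of genes with known roles. Of 14 partners and relatives of AP-1, 13 were tested in poly(A) RNA. With siPADI2, 3 were higher and 2 lower, with a median of −0.11, where 28.8% of all genes were higher and 27.9% lower. BATF, a partner of JUN proteins best known in lymphocytes, went from 4.54 and 4.53 CPM to 1.18 and 1.25 (−1.92 ± 0.162, adjusted p = 4.62e-13, edgeR). BATF2 fell by 1.51 ± 0.197, and ATF1, a CREB relative, rose by 0.50 ± 0.0924. In the libraries labelled R1810A, 2 were higher and 7 lower (median −0.21), against 22.6% and 24.3% of all genes. Among the lower were MAFG (−0.43 ± 0.0704) and ATF2 (−0.34 ± 0.0643), a partner of JUN at cyclic AMP response elements. In chromatin RNA 0 of 14 were higher and 4 lower, against 12.2% and 20.1% of all genes.

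Among 20 other immediate early genes, 17 were tested with siPADI2, with 5 higher and 6 lower and a median of 0.08. Of all genes, 28.8% were higher and 27.9% lower. CCN1, a secreted matrix protein, was at 20.9 and 22.1 CPM with siCtrl and 65.3 and 58.5 with siPADI2, a rise of 1.51 ± 0.0927 (adjusted p = 4.02e-17, edgeR). IER3 went the other way, from 69.4 and 56.2 to 18.1 and 17.5 CPM (−1.83 ± 0.0986, adjusted p = 4.65e-18, edgeR). The orphan nuclear receptor gene NR4A3 rose by 1.63 ± 0.261 with siPADI2 and by 1.65 ± 0.217 in the libraries labelled R1810A. In the latter, 6 of 18 were higher and 6 lower (median 0.07), against 22.6% and 24.3% of all genes. CCN2 fell there from 4.75 and 4.70 to 1.03 and 1.00 CPM (−2.25 ± 0.129, adjusted p = 2.15e-08, edgeR). In chromatin RNA 0 of 20 were higher and 6 lower, against 12.2% and 20.1% of all genes. NR4A1 was among the lower, at 58.5 and 67.5 against 27.9 and 28.2 CPM (−1.17 ± 0.210).

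The upstream list holds serum response factor, its partners and MAP kinase genes. With siPADI2, 5 of 16 tested were higher and 6 lower, against 28.8% and 27.9% of all genes. ELK4, a partner of serum response factor, rose from 41.5 and 44.7 to 79.2 and 93.5 CPM (0.99 ± 0.0897). RPS6KA5 (MSK1), a kinase that phosphorylates histone H3 at immediate early genes, fell by 1.19 ± 0.0955 with siPADI2 and by 0.83 ± 0.0713 in the libraries labelled R1810A. MRTFB, an actin-regulated coactivator of serum response factor, fell by 0.67 ± 0.0858 and 0.95 ± 0.0633. In the libraries labelled R1810A, 2 of 16 were higher and 10 lower, against 22.6% and 24.3% of all genes, with a median of −0.18 against −0.02. In chromatin RNA 1 of 17 was higher and 5 lower, against 12.2% and 20.1% of all genes. NAB2, a co-repressor that binds EGR1, rose in poly(A) RNA by 0.72 ± 0.0856 with siPADI2 and by 0.31 ± 0.0615 in the libraries labelled R1810A, and fell by 0.67 ± 0.230 in chromatin RNA.

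Of 18 genes known as AP-1 targets, 12 were tested in poly(A) RNA. With siPADI2, 5 were higher and 3 lower, against 28.8% and 27.9% of all genes, with a median of 0.15 against 0.01. CCND1, the cyclin gene that drives entry into S phase, was at 131.3 and 122.5 CPM with siCtrl and at 21.5 and 22.6 with siPADI2 (−2.54 ± 0.0884, adjusted p = 5.94e-25, edgeR). In the libraries labelled R1810A, 7 were higher and 1 lower, against 22.6% and 24.3% of all genes, with a median of 0.75 against −0.02. TIMP1, a metalloproteinase inhibitor, rose from 4.48 and 4.77 to 26.1 and 26.2 CPM (2.46 ± 0.0766, adjusted p = 1.46e-10, edgeR), and the hyaluronan receptor gene CD44 rose by 1.13 ± 0.0620. The 1 that fell was CCND1, from 89.9 and 94.2 to 30.9 and 31.4 CPM (−1.60 ± 0.0596). In chromatin RNA 2 of 18 were higher and 5 lower, against 12.2% and 20.1% of all genes.

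**Figure D5:**
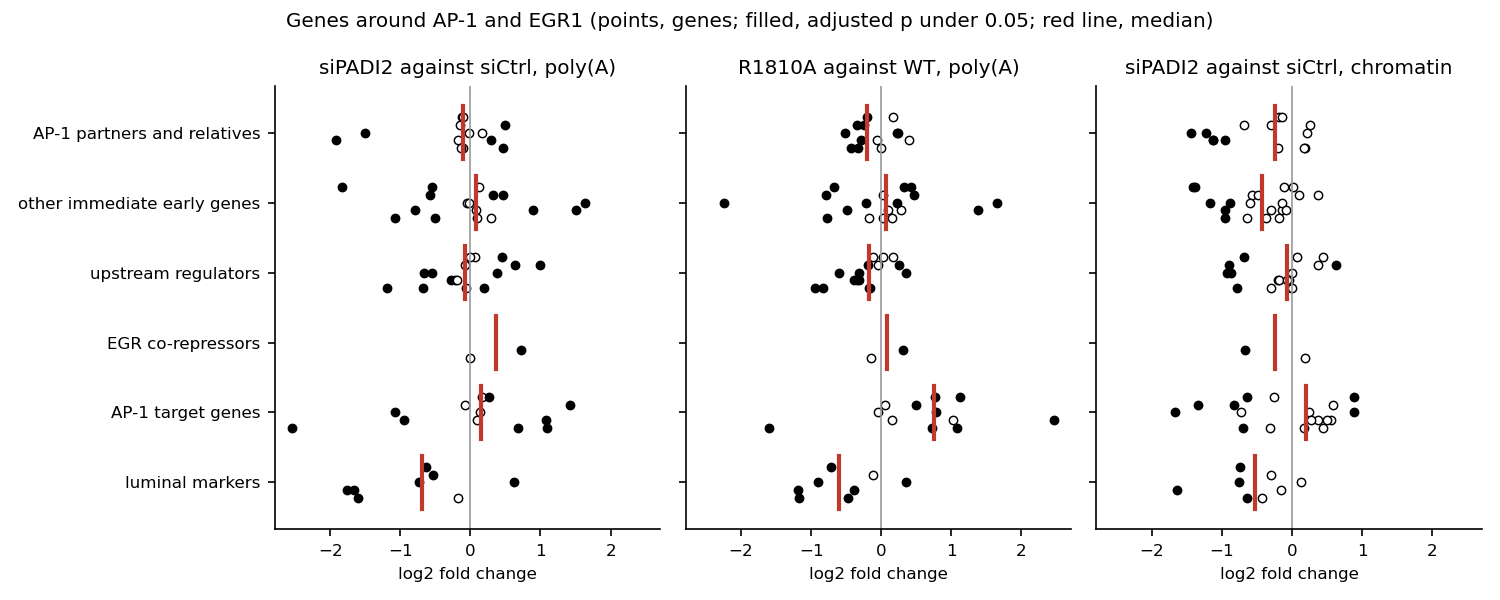
Log2 fold change of each tested gene of 5 pathway lists and the luminal markers in the 3 comparisons; filled points have an adjusted p under 0.05 in edgeR and the red line is the median of the list. The AP-1 target median is 0.15, 0.75 and 0.20 in the panels from left to right, and the luminal marker median is −0.69, −0.60 and −0.53.

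Genes most like FOS, JUN and EGR1 were sought by the correlation of log2(CPM + 0.5) over the 8 poly(A) libraries, among 13568 genes with a mean of at least 1 CPM. The libraries form 4 groups of 2, so this is a description of shared group order. For JUN the closest were PKP3 and SAC3D1 (both 0.999) and NR2C2AP (0.997). FOS had CYS1 (0.990), ZNF649 (0.988) and BAMBI (0.986). Among those closest to EGR1 were PLCB3 (0.976) and GPRC5B (0.973).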

How the data were processed

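The deposited values are raw counts of read pairs per gene, 1 table for each of the 12 libraries, not normalized. The authors aligned reads with STAR and made the counts with featureCounts 1.5.1 (poly(A)) or 1.4.6-p2 (chromatin) over GENCODE 19 genes on hg19, with strand option 2, per the file headers. Trimmomatic was used for trimming, per the submitters' processing notes. The counting commands leave the feature type at its default, the exon, so intron reads are not in the values. Per the labels' protocols, poly(A) libraries used a stranded mRNA kit and chromatin libraries a stranded total RNA kit with ribosomal RNA removal. Symbols were matched by gene identifier for 39538 of 57820 genes.

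The whole table was tested for each comparison, with only its 4 libraries, by edgeR 4.0.16 in R 4.3.3, quasi-likelihood F test (TMM scaling, filterByExpr, robust fit), with Benjamini-Hochberg adjustment over all genes tested and a threshold of 0.05. The SE is the size of the log2 fold change divided by the square root of F. Differences between effects are interaction contrasts of joint fits. CPM uses TMM factors over the 8 poly(A) or the 4 chromatin libraries. Members are always named, and of each other list at most the 3 genes that passed with the largest change per comparison. Some genes that this rule or the likeness rule names are not reported here. The members and lists were chosen with earlier results of these data known. Whether libraries of 1 group are from different cultures is not stated in the labels, so a p-value covers no more than the spread among these libraries, and that spread may be technical. No pair agreed within sampling noise (chi-square per degree of freedom 3.55 to 91.7). The steps were run on simulated counts with the same spread for all genes, which does not cover the spread among these libraries. Alternatives were DESeq2 size factors, library totals, no filter, the DESeq2 1.42.0 Wald test, joint fits, a replicate block and leaving out each library.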

Additional observations from a re-analysis of the deposited data

Results flagged for a closer look

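Each of 3 members had a difference between effects that passed edgeR's quasi-likelihood interaction contrast. For JUNB the siPADI2 effect minus the R1810A effect was −0.67 on the log2 scale: JUNB fell with siPADI2 and did not pass in the libraries labelled R1810A, where it passed as higher without R1810A replicate 1 and with the replicate block. The chromatin minus the poly(A) effect of siPADI2 was −1.61 for FOSL2 and −1.23 for ATF3, which rose in poly(A) RNA and did not pass in chromatin RNA. These 2 values were at the 14.7th and 20.5th percentile of all genes tested, whose median was −0.16.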

How the results depend on the processing

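FOSL2 and ATF3 higher in both poly(A) comparisons, JUNB lower with siPADI2 and EGR1 lower in the libraries labelled R1810A were called in all 10 alternatives of their comparison. Members lower with siPADI2 in poly(A) RNA numbered 2, and 1 with library totals, no filter or DESeq2, and 1 to 2 when 1 library was left out. In the libraries labelled R1810A they numbered 5, but 3 with library totals or the joint fit, 2 with DESeq2 and 1 to 4 with a library left out. In chromatin RNA they numbered 3, but 1 with DESeq2 and 1 to 3 with a library left out. All genes called there were 10962, but 4110 with DESeq2 and 4846 to 7988 with a library left out. Members with a difference between the siPADI2 and R1810A effects numbered 1 (JUNB), and 4 with library totals (FOSL1, FOSL2, ATF3, EGR1) or the replicate block (JUNB, JUND, ATF3, EGR1). Genes with a difference between chromatin and poly(A) effects were 3592, and 5740 with library totals. Library totals raised the median of all genes by 0.18 (siPADI2, poly(A)), 0.06 (R1810A) and 0.11 (chromatin), and that of the 2 differences between effects by 0.15 and 0.11. Several changes that did not pass turned sign. With siPADI2 in poly(A) RNA, JUN was 0.089 with library totals and −0.20 to 0.012 with a library left out, and JUND −0.0068 to 0.19 with a library left out. In the libraries labelled R1810A, JUNB ran from −0.045 to 0.29 with a library left out. In chromatin RNA, FOSB ran from −0.31 to 0.041 and ATF3 from −0.48 to 0.0019 with a library left out. The chromatin minus poly(A) difference was 0.083 (library totals) and 0.33 (DESeq2) for FOSB and 0.22 (DESeq2) for JUNB. Replicates share only a number, with 2 pairs per comparison (correlation of deviations 0.249 for the siRNA and 0.791 for the RNAP2 libraries). With the replicate block, 11513 genes passed for siPADI2 and 12582 for R1810A in poly(A) RNA, against 10620 and 9010 without it. With that block JUNB passed as higher in the libraries labelled R1810A (0.13, adjusted p = 0.0228, edgeR), and the differences between the poly(A) effects passed for ATF3 (0.21, adjusted p = 0.0292, edgeR), EGR1 (0.67, adjusted p = 0.0402, edgeR) and JUND (−0.37, adjusted p = 0.0273, edgeR). No paired analysis was possible in chromatin RNA because the groups share only number 1. A library left alone in its group was assumed to vary like the other group. The causes of these changes were not tested. Depth limits FOS, FOSL1 and EGR3 in poly(A) RNA and all members in chromatin RNA, where each had at most 214 counts per library. It also limits FOSB and EGR1 in poly(A) RNA, with 61 and 63 counts in siCtrl replicate 1.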
